A study of Rattus norvegicus with 32 samples.

Results

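Fatty acid and triglyceride synthesis was described through 31 genes in the mammary gland of the cycling rat. The genes were the members of a list of enzymes, acyl transfer proteins and regulators of lipogenesis, and a gene entered through each probe set that carried its symbol in the platform annotation and had an intensity of 10 or more on all 31 arrays used. All 31 of 31 genes met this, of 11211 genes with a single symbol that did so in the whole series. The 31 genes had 58 probe sets, 52 of which passed, and each gene was read from the passing probe set whose mean log2 intensity was highest. Mammary tissue had been taken from adult virgin Sprague-Dawley rats without treatment, on standard chow and with regular 4-day cycles, and each rat gave 1 Affymetrix Rat 230 2.0 array at its own hour of the cycle. The rats fell into 4 cycle days, with 8 on each of days 1 to 3 and 7 on day 4, and estrus fell on day 2. Sampling ran over 7 to 17.6 h of the clock on day 1, 7.6 to 19 h on day 2, 9 to 19.1 h on day 3 and 7.3 to 16.1 h on day 4. Rats were also read along the clock, with 17 later rats sampled from 13 to 19.1 h and 14 earlier rats sampled from 7 to 11.9 h. A further rat, at 40 h, was left out of the fits, as it was in the study, whose authors found that its data appeared corrupted.

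Lipogenic cells turn citrate into acetyl-CoA, build palmitate on fatty acid synthase with NADPH, lengthen and desaturate it, and join the fatty acids to glycerol phosphate to form triglyceride. The transcription factor SREBP-1, the product of Srebf1, is activated under insulin, and ChREBP, the product of Mlxipl, responds to metabolites of glucose. Both are known to bind near many of these enzymes' genes in liver and fat. The gland of a virgin rat holds a ductal epithelium inside a large fat pad, and both adipocytes and the secretory epithelium make triglyceride.

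The labelled tissue carried its defining markers. On every array used, all 15 luminal epithelial markers, all 9 basal markers on the array, all 16 adipocyte markers on the array and all 5 milk protein genes on the array had an intensity of 10 or more. The arrays differed in the tissue beside the gland. The mean of 6 skeletal muscle markers, of 13 on the array, ran from -4.31 to 2.41 on the log2 scale around its own mean over the 31 rats. That of 5 lymphocyte markers, of 9 on the array, ran from -0.877 to 2.66. Cd3d, Cd5, Cd79b and Ms4a1 missed the intensity minimum. In whole tissue, fewer cells of a type and less RNA per cell cannot be told apart. Array medians lay between 49.9 and 54.7, and the number of arrays limits the precision.

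Members differed widely in how much they varied between rats. Elovl6, the elongase that takes palmitate to stearate, ran from 26.3 to 1266 with a median of 173, a 48.2-fold span over the 31 rats. Pnpla3, a lipid droplet acylhydrolase, had a 36.9-fold span (16.8 to 619, median 76.2). Scd, the stearoyl-CoA desaturase that makes oleate, had a 22.9-fold span (899.6 to 20640, median 11760). Acsl5, an acyl-CoA synthetase, spanned 1.52-fold, Elovl1, an elongase of very long chains, 1.53-fold, and Agpat1, an acyltransferase of the glycerolipid path, 1.78-fold. Many members moved together from rat to rat. Of 465 pairs of members, 85 had a Pearson r of at least 0.7 over the 31 rats and 12 had an r of -0.5 or lower, with a median of 0.319. The closest pair was Acaca, the acetyl-CoA carboxylase that makes malonyl-CoA, with Elovl6 (r = 0.941), followed by Dgat2 with Agpat2 (r = 0.92), enzymes of the last and the second acylation of glycerolipid. All points of these correlations share the 31 arrays.

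**Figure D1:**
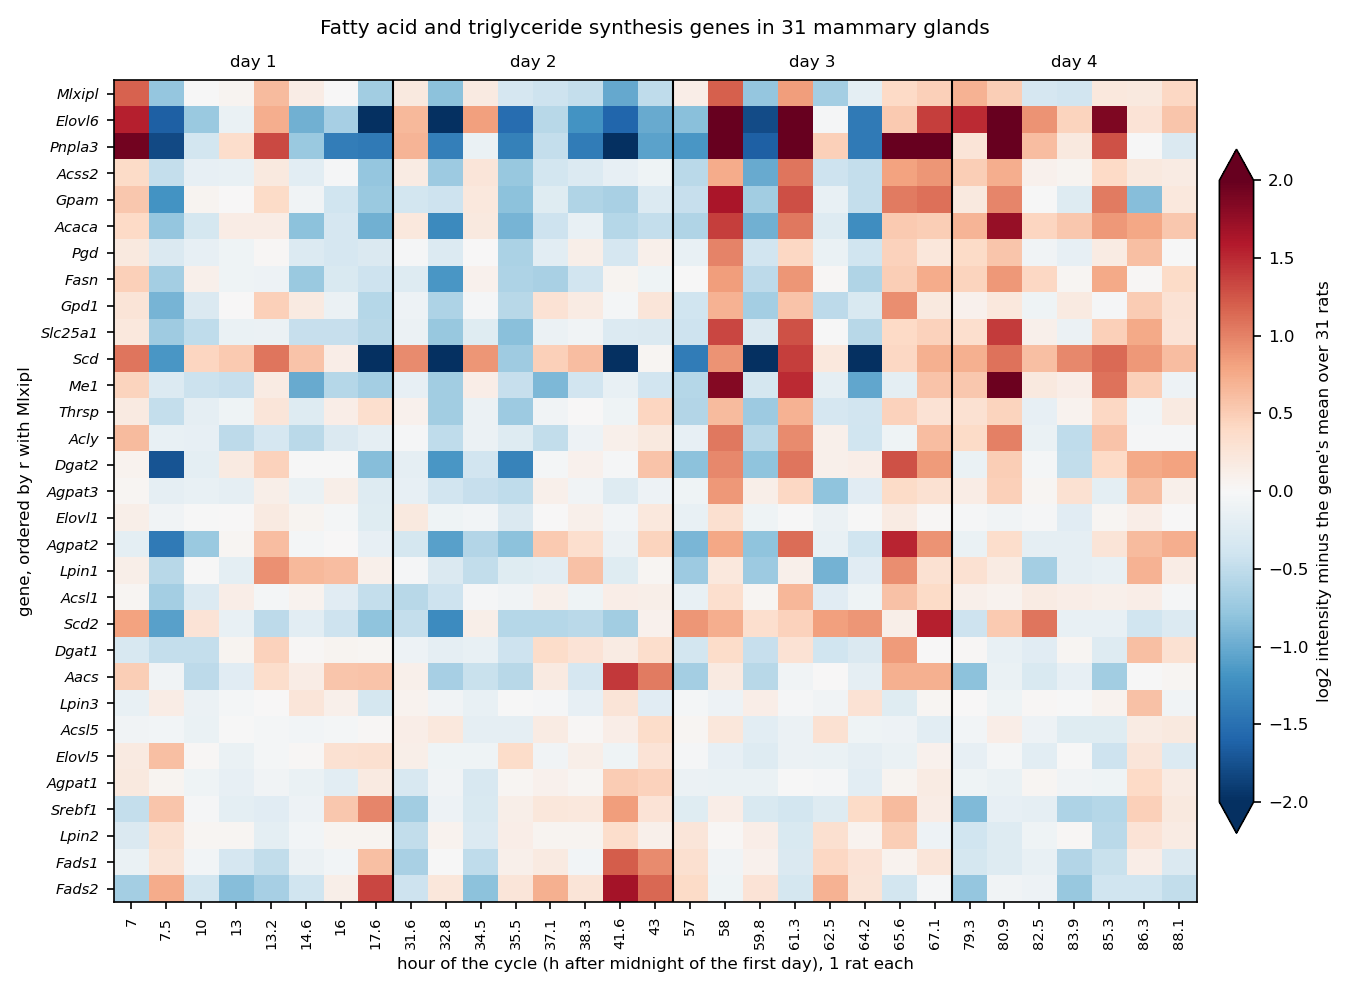
Log2 intensity of each of the 31 genes (rows, from the highest to the lowest r with Mlxipl) minus the gene's mean, in 31 rats in order of the hour of the cycle (columns, vertical lines between days). Elovl6, Pnpla3 and Scd have the deepest colours, and rats such as those at 58, 61.3 and 80.9 h are high for most of the upper rows, while Fads1 and Fads2 at the bottom are highest at 41.6 h.

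Along the clock hour, Srebf1 and Aacs rose. Srebf1 had intensities of 757 to 2221 with a median of 1307 in the 17 later rats, against 614 to 1655 with a median of 972 in the 14 earlier rats. The groups overlapped, with the later rats at 17.6 h (2221), 41.6 h (2002) and 65.6 h (1752) above all earlier rats. The means were 1337 ± 404 (SD, n = 17) in later rats and 992 ± 265 (SD, n = 14) in earlier rats. The slope, fitted with cycle day as a factor, was a log2 rise of 0.77 over 10 h (SE 0.18, limma adjusted p = 0.0154), and the other Srebf1 probe set gave 0.84 (adjusted p = 0.00361, limma).

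Aacs encodes acetoacetyl-CoA synthetase, which returns ketone bodies to lipid synthesis. It had 69.8 to 300.2 with a median of 125 in later rats, against 64.3 to 159 with a median of 87.2 in earlier rats. The rats at 41.6 h (300.2) and 43 h (232) were the highest of all. Its slope was a log2 rise of 0.93 over 10 h (SE 0.21, limma adjusted p = 0.0111).

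These were the members called along the hour, 2 of 31 higher and 0 of 31 lower, where 1.21% of all 21068 probe sets were called higher and 0.75% lower. At an unadjusted p under 0.05, 9 of 31 members were counted, and 12.6% of all probe sets. The median member slope was 0.03 on the log2 scale over 10 h, against 0.02 for all probe sets. Nearest to the threshold was Agpat2, with 1285 ± 510 (SD, n = 17) in later rats and 740 ± 330 (SD, n = 14) in earlier rats, a log2 slope of 1.02 over 10 h (SE 0.28, limma adjusted p = 0.0514).

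The other members of triglyceride assembly did not pass, and their slopes ran from 0.88 to -0.07. Dgat2, one of the enzymes of the last acylation, had 0.88 (limma adjusted p = 0.15), its counterpart Dgat1 0.50 (0.108), the phosphatidate phosphatase Lpin1 0.51 (0.331), Gpd1, which makes glycerol phosphate, 0.32 (0.563), Agpat1 0.30 (0.11) and Lpin2 0.24 (0.423). Lpin3 had 0.03 (0.934), Agpat3 -0.0015 (0.998) and Gpam, the first acyltransferase, -0.07 (0.956). The desaturases of polyunsaturated fatty acids, Fads1 and Fads2, had 0.54 (limma adjusted p = 0.142) and 0.61 (0.37). The path from citrate to palmitate showed no slope past the threshold. Fasn, the fatty acid synthase itself, averaged 6755 ± 2471 (SD, n = 17) in later rats and 6877 ± 2694 (SD, n = 14) in earlier rats, with a slope of 0.02 over 10 h (SE 0.23, limma adjusted p = 0.987). Mlxipl averaged 40.6 ± 14.2 (SD, n = 17) in later rats and 44.9 ± 22.5 (SD, n = 14) in earlier rats, with a slope of -0.39 (SE 0.27, adjusted p = 0.584).

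Both calls were kept in each of 31 fits with 1 rat left out (highest limma adjusted p 0.0482 for Srebf1, without the rat at 17.6 h, and 0.0445 for Aacs, without the rat at 43 h), but neither gene passed without day 2 (0.288 and 0.213) or without day 3, and Aacs alone passed without day 4. Adipocyte markers moved along the hour too: 3 of 16 were called higher, and their mean on the log2 scale was 0.098 (range -0.444 to 0.740) in later rats and -0.119 (-0.513 to 0.198) in earlier rats. With that mean in the fit, Srebf1, Aacs, Fads1 and Fads2 were called, where 3.72% of all probe sets were, against 1.96% without it. With the means of adipocyte, muscle, luminal and lymphocyte markers together, 0 members were called, where 1.22% of all probe sets were.

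**Figure D2:**
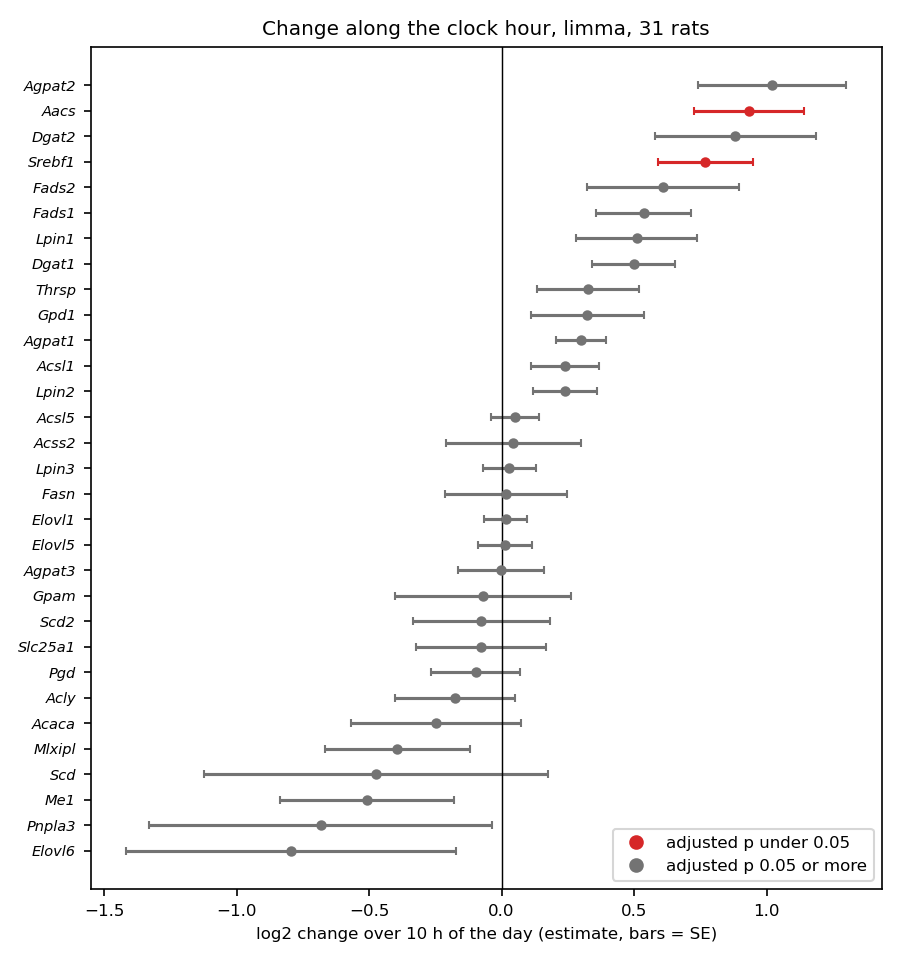
Log2 change over 10 h of the clock for each of the 31 genes (points, limma estimate from 31 rats with cycle day as a factor; bars, SE). The 2 genes in red, Aacs at 0.93 and Srebf1 at 0.77, had an adjusted p under 0.05; the wide bars at the bottom belong to Elovl6, Pnpla3 and Scd.

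Between cycle days, the member called was Scd2, the stearoyl-CoA desaturase that is the counterpart of Scd. Its mean intensity in rats of day 1 was 1507 ± 683 (SD, n = 8), in those of day 2 1239 ± 376 (n = 8), in those of day 3 2877 ± 942 (n = 8) and in those of day 4 1835 ± 842 (n = 7). The 8 rats of day 3 ran from 1819 to 4903, above each of the 8 rats of day 2 (695.7 to 1808), and overlapped day 1 (786 to 2916). The log2 difference was 1.22 for day 3 against day 2 (SE 0.25, limma adjusted p = 0.027) and 1.0 for day 3 against day 1 (SE 0.25, adjusted p = 0.0444), and the test over all days gave an adjusted p of 0.0399.

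Scd2 was the 1 of 31 members called in each of these tests, where 0.0665% of all probe sets were called higher on day 3 against day 2, 0.403% higher on day 3 against day 1 and 0.574% over all days. The call of day 3 against day 2 was lost without the rat at 32.8, 57, 64.2 or 67.1 h, with 27 of 31 such fits keeping it. That of day 3 against day 1 was kept in 16 of 31 and the test over all days in 10 of 31. The other Scd2 probe sets correlated with this one at r = 0.635 and r = 0.552, and the mean of all its probe sets did not pass (highest adjusted p 0.129 for day 3 against day 2).

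Markers of other cells also differed on day 3. For day 3 against day 1, 1.12% of all probe sets were called in either direction and 0.403% were called higher. Of 9 basal markers, 4 were called higher (Cnn1 with a log2 difference of 0.97, Tagln 0.68, Myh11 0.66 and Mylk 0.47) and Oxtr, the oxytocin receptor, lower (-1.66) on day 3 against day 1 in limma. Of 15 luminal markers, Krt8 (0.47) and Krt18 (0.41) were called higher and Prom1 (-0.99) lower in that contrast, and of 10 macrophage markers Cd163 (-0.63) was called lower. Of 5 lymphocyte markers 0 were called in that contrast, with a median log2 difference of 0.95. Of 7 endothelial markers 0 were called, with a median of -0.22, and the median of all probe sets was -0.005. The mean of the lymphocyte markers was 0.537 (-0.685 to 2.29) in rats of day 3 and -0.414 (-0.877 to -0.08) in those of day 2. With the means of adipocyte, muscle, luminal and lymphocyte markers in the fit, the log2 difference of Scd2 was 1.17 for day 3 against day 2 (limma adjusted p = 0.0813) and 0.98 for day 3 against day 1 (0.107), and the test over all days gave 0.174, so that no day call of Scd2 was kept. The part of these cells in the values of Scd2 was not tested beyond this fit.

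In the other day contrasts, 0 of 31 members were called in limma, where 0.00475% of all probe sets were for day 2 against day 1, 0.0237% for day 4 against day 1, 0.0427% for day 4 against day 2 and 0% for day 4 against day 3. At an unadjusted p under 0.05 the counts were 0, 8, 12 and 2 of 31 members, where 5.78%, 6.47%, 7.48% and 5.79% of all probe sets were. Elovl6 averaged 404 on day 3 and 127 on day 2, a log2 difference of 1.36 (SE 0.60, limma adjusted p = 0.334), and Pnpla3 237 and 53.1, a difference of 1.68 (SE 0.62, adjusted p = 0.245), and neither passed. The mean over the 31 members was -0.111, -0.188, 0.138 and 0.185 on the log2 scale in rats of days 1, 2, 3 and 4, and the rats of day 3 alone covered -0.505 to 0.759. Neither a slope that differed between days (0 of 31 members, 2 at an unadjusted p under 0.05, 0.00475% of all probe sets called and 3.56% unadjusted) nor a bend of the slope at midday (0 of 31, 5 unadjusted, 0.0142% and 4.43%) was called for any member.

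**Figure D3:**
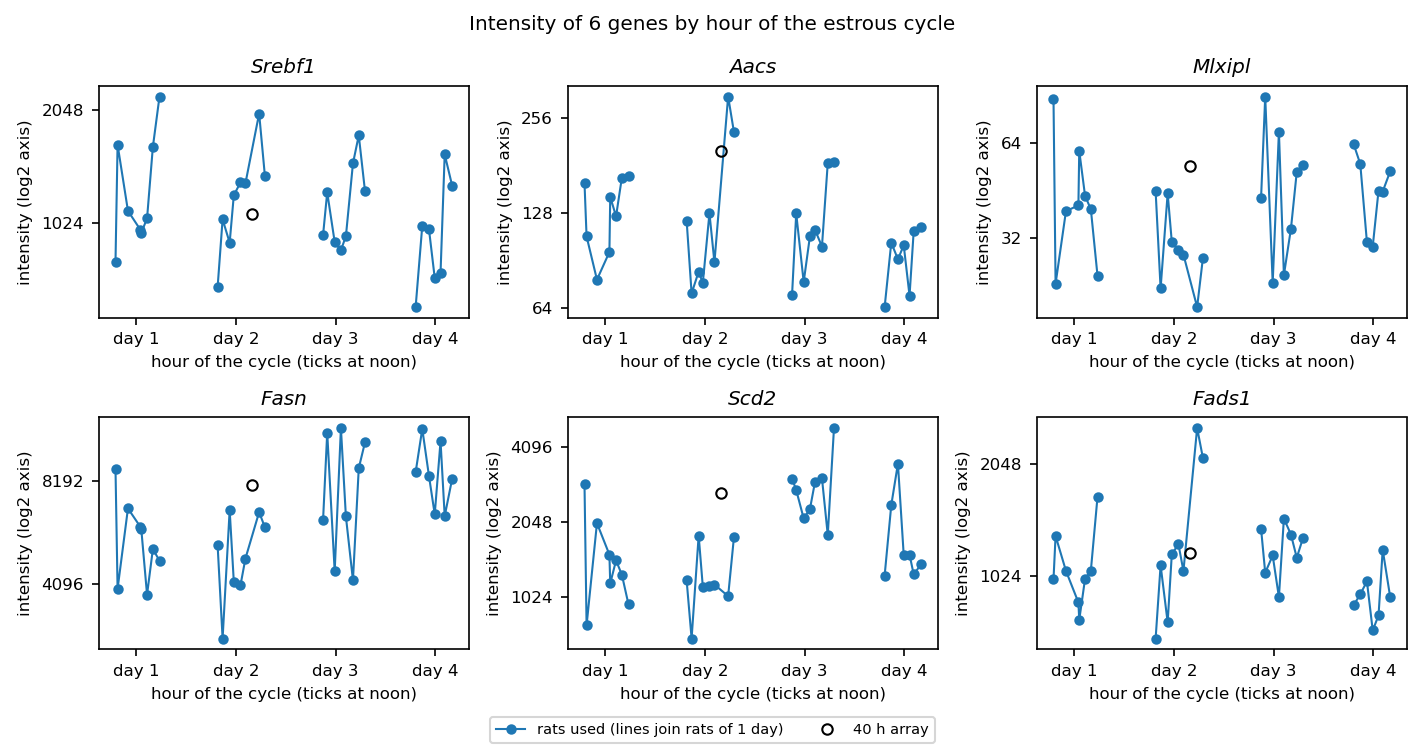
Intensity (log2 axis) of 6 genes against the hour of the cycle, 1 point per rat, with lines joining the rats of a day and an open circle for the 40 h array that was left out. Srebf1 and Aacs end most days higher than they begin them, Scd2 lies highest on day 3 (1819 to 4903), and Fasn and Mlxipl move up and down between neighbouring hours.

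The study's own test for temporal variation, a piecewise linear spline through the cycle whose fit is compared with permuted times (Method 1), called 6 of 31 members at its false discovery rate of 0.25, where 9.06% of all probe sets were called. They were Agpat1 (fitted share of variance 0.638, adjusted p = 0.0141, permutation), Fads1 (0.615, 0.0246), Scd2 (0.544, 0.0889), Aacs (0.539, 0.0982), Srebf1 (0.476, 0.182) and Fads2 (0.476, 0.182). The median share was 0.329 for members, 0.248 for all probe sets and 0.219 for permuted times. Agpat1, which varied least of these, had 107 to 190 over 31 rats, highest at 41.6 h (190) and 43 h (184.5). Fads1, the delta-5 desaturase, was also highest at these hours (2549 and 2118), as was Fads2, the delta-6 desaturase, at 41.6 h (296.6). The count fell to 2 without the rat at 35.5 h.

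The levels of most lipogenic enzymes rose and fell with that of Mlxipl from rat to rat. Members were also close to each other, with a median r of 0.319 over all pairs. Elovl6 had r = 0.941 with Acaca and 0.909 with Pnpla3, against 0.826 with Mlxipl. Fasn had 0.886 with Elovl6, against 0.682 with Mlxipl. Whether any of these genes leads the others was not tested. Mlxipl itself was dim, from 19.3 to 90.1 with a median of 40.6, and high in the rats at 58 h (90.1), 7 h (88.7) and 61.3 h (69.7). Of the 30 relations with the other members, 17 were called positive and 2 negative by limma, where 2.83% and 3.04% of all probe sets were. The median r was 0.556 for members and -0.002 for all probe sets. Without the rats of day 3, 6 were called positive and 4 negative, where 2.94% of all probe sets were called in either direction. With the means of adipocyte, muscle, luminal and lymphocyte markers in the fit, 2 were positive and 0 negative.

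The 17 genes fell at several steps of the path. Citrate export and cleavage were there with Slc25a1, the mitochondrial citrate carrier (r = 0.675), and Acly, the ATP citrate lyase (0.611), beside Acss2, which makes acetyl-CoA from acetate (0.787). Palmitate synthesis followed with Acaca (0.72) and Fasn (0.682), and its NADPH supply with Me1, the malic enzyme (0.625), and Pgd of the pentose phosphate path (0.711). Elovl6 (0.826) and Scd (0.67) modify the product. Among genes of assembly were Gpam (0.77), Gpd1 (0.678), Agpat2 (0.518), Agpat3 (0.591), Lpin1 (0.497) and Dgat2 (0.605). Thrsp, the Spot 14 protein (0.613), and Pnpla3 (0.801) completed the 17. Lpin1 lay at the threshold (limma adjusted p = 0.0498). It was not called without the intensity minimum, with quantile normalization or with the mean of all its probe sets, among other alternatives. Its other probe set had r = 0.436 with Mlxipl, and those of Agpat3 had 0.506, 0.335 and 0.178.

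Elovl6 was the closest. Its r with Mlxipl was 0.826 (permutation p = 1e-05, the smallest that 100000 resamples give), its rho 0.855 (permutation p = 1e-05) and its limma adjusted p 1.02e-05, and r was 0.794 without the rats at 58 and 7 h, farthest from the median of Mlxipl. Within days r was 0.96, 0.879, 0.87 and 0.485 on days 1 to 4. In the 3 rats with the highest Mlxipl, Elovl6 was 1266, 518 and 869.5, and in the 3 with the lowest (41.6, 32.8 and 7.5 h) 58.5, 26.3 and 56.4.

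Pnpla3 had r = 0.801 and rho = 0.802 (permutation p = 1e-05 each, limma adjusted p = 3.14e-05), 0.745 without the same rats, and 0.91, 0.9, 0.796 and 0.15 on days 1 to 4. Fasn had r = 0.682 (permutation p = 3e-05) and rho = 0.677 (permutation p = 4e-05, limma adjusted p = 0.00163), 0.638 without the same rats, and 0.725, 0.283, 0.851 and 0.464 within days. Over all 17, r without these rats ranged from 0.479 to 0.794, and 14 of 17 had an r above 0 on each of the 4 days. The median r within days was 0.808, 0.304, 0.829 and 0.469 on days 1 to 4, and the difference between days was not tested. With day and hour removed the median r was 0.724, against 0.675 before.

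Fads1 and Fads2 ran the other way. Fads2 had r = -0.69 with Mlxipl (permutation p = 2e-05, rho = -0.668, permutation p = 8e-05, limma adjusted p = 0.00123) and Fads1 r = -0.536 (permutation p = 0.00173, rho = -0.567, permutation p = 0.00104, adjusted p = 0.0296). Without the rats at 58 and 7 h their r was -0.733 and -0.599. In Fads2 the sign held on each day (-0.8, -0.832, -0.765 and -0.098), and in Fads1 on days 1 to 3. Lpin2, a further phosphatidate phosphatase, had r = -0.506 (adjusted p = 0.0534). The remaining members did not pass with Mlxipl: Elovl1 (r = 0.521, limma adjusted p = 0.0704), Acsl1, an acyl-CoA synthetase (0.48, 0.0676), Scd2 (0.41, 0.132), Dgat1 (0.287, 0.37), Aacs (-0.018, 0.974), Lpin3 (-0.09, 0.854), Acsl5 (-0.134, 0.764), Elovl5, the elongase of polyunsaturated fatty acids (-0.21, 0.57), and Agpat1 (-0.221, 0.548).

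With Srebf1, the members called positive were Fads1, Fads2, Lpin2, Agpat1 and Aacs. Of 30 relations 5 were called positive and 2 negative by limma, where 6.11% and 4.27% of all probe sets were, and the median r was -0.035 for members against 0.018 for all probe sets. The positive ones were Fads1 (r = 0.698, permutation p = 3e-05, rho = 0.695, permutation p = 4e-05, limma adjusted p = 0.000745), Lpin2 (0.694, adjusted p = 0.00121), Fads2 (0.647, 0.00228), Aacs (0.579, 0.0103) and Agpat1 (0.528, 0.0312). The other probe set of Lpin2 had r = -0.247 with Srebf1 and that of Agpat1 0.2, and with the mean of all probe sets of a gene neither Lpin2 nor Agpat1 was called. Their r was 0.4 to 0.721 without the rats at 17.6 and 41.6 h, farthest from the median of Srebf1, and 4 of 5 had an r above 0 on all 4 days. Fads2 was the exception, with r = -0.394 on day 3. The median within days was 0.691, 0.901, 0.172 and 0.797.

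The negative ones were Scd (r = -0.512, permutation p = 0.00336, rho = -0.576, permutation p = 0.00091, limma adjusted p = 0.0271) and Elovl6 (r = -0.476, permutation p = 0.00663, rho = -0.503, permutation p = 0.00411, adjusted p = 0.0445). Without the rats at 17.6 and 41.6 h their r was -0.282 and -0.372, and without either rat neither gene was called. Fasn had r = -0.263 with Srebf1 (permutation p = 0.153, rho = -0.297, permutation p = 0.106, limma adjusted p = 0.337), with 0.16 and 0.06 on days 2 and 3 and -0.59 and -0.268 on days 1 and 4. Acaca (-0.357), Acly (-0.165), Me1 (-0.327) and Acss2 (-0.239) did not pass either. With day and hour in the fit, Lpin2, Fads1 and Fads2 were still called and the negative calls were not.

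**Figure D4:**
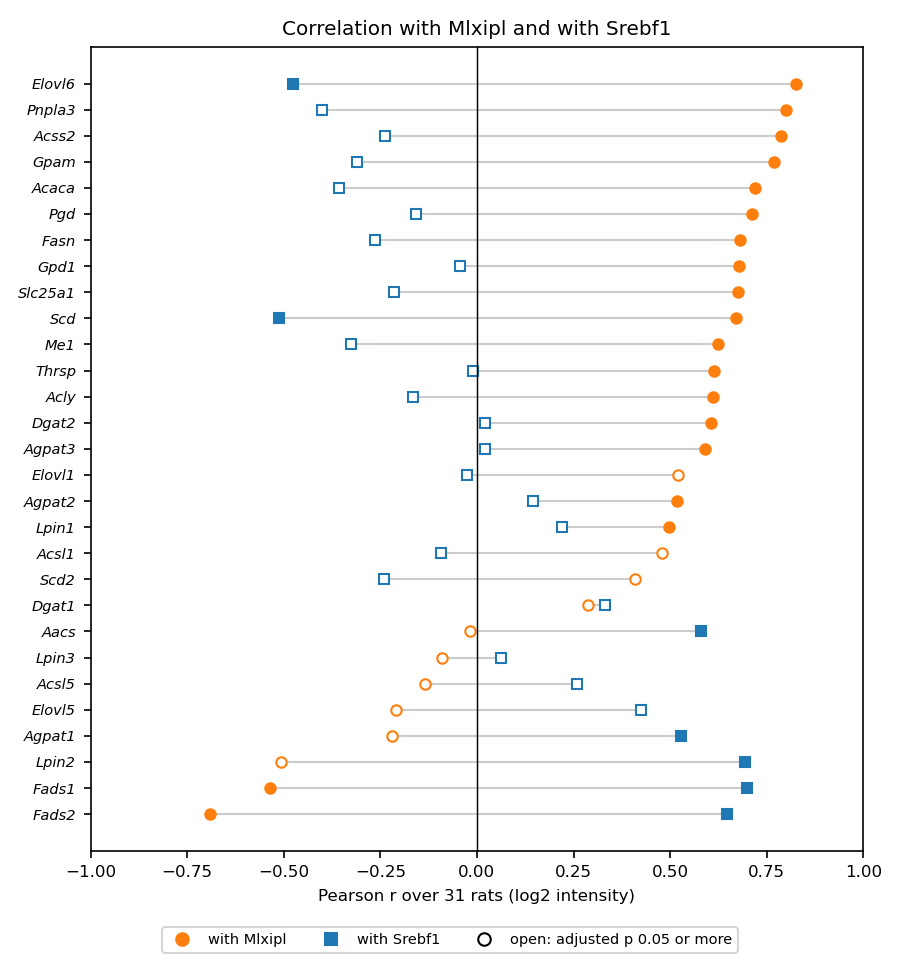
Pearson r over 31 rats of each of 29 genes with Mlxipl (orange circles) and with Srebf1 (blue squares), open where the limma adjusted p was 0.05 or more. Genes run from Elovl6 at the top (0.826 with Mlxipl, -0.476 with Srebf1) to Fads2 at the bottom (-0.69 and 0.647).

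The regulators themselves had r = -0.38 with each other (permutation p = 0.035, rho = -0.378, permutation p = 0.0363). Limma did not call this relation (adjusted p = 0.18 with Mlxipl as the regulator and 0.132 with Srebf1). Without the rats of day 3 it was called in both fits, where 2.94% of all probe sets were with Mlxipl and 12.9% with Srebf1. Within days their r was -0.852 and -0.82 on days 1 and 2 and 0.252 and -0.014 on days 3 and 4, and the difference between days was not tested. The difference between a gene's slope on Mlxipl and its slope on Srebf1, both per SD and in 1 fit, was called positive for 12 of 29 members and negative for 3 of 29, where 5.73% and 7.47% of all probe sets were. This fit was added after the single fits had been seen. Without day 3, 7 differences were called positive, where 11.6% of all probe sets were called in either direction, and with the means of the 4 marker lists 4 were, where 2.7% were. Elovl6 had the highest value, 1.36 on the log2 scale (SE 0.17, limma adjusted p = 2.05e-06), followed by Pnpla3 with 1.24 (SE 0.18, 2.08e-05) and Scd with 1.14 (SE 0.20, 0.000195). Fasn had 0.37 (SE 0.09, 0.00404). The negative ones were Fads2 with -0.63 (SE 0.08, 5.72e-06), Fads1 with -0.38 (SE 0.06, 8.61e-05) and Lpin2 with -0.22 (SE 0.04, 0.000283).

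**Figure D5:**
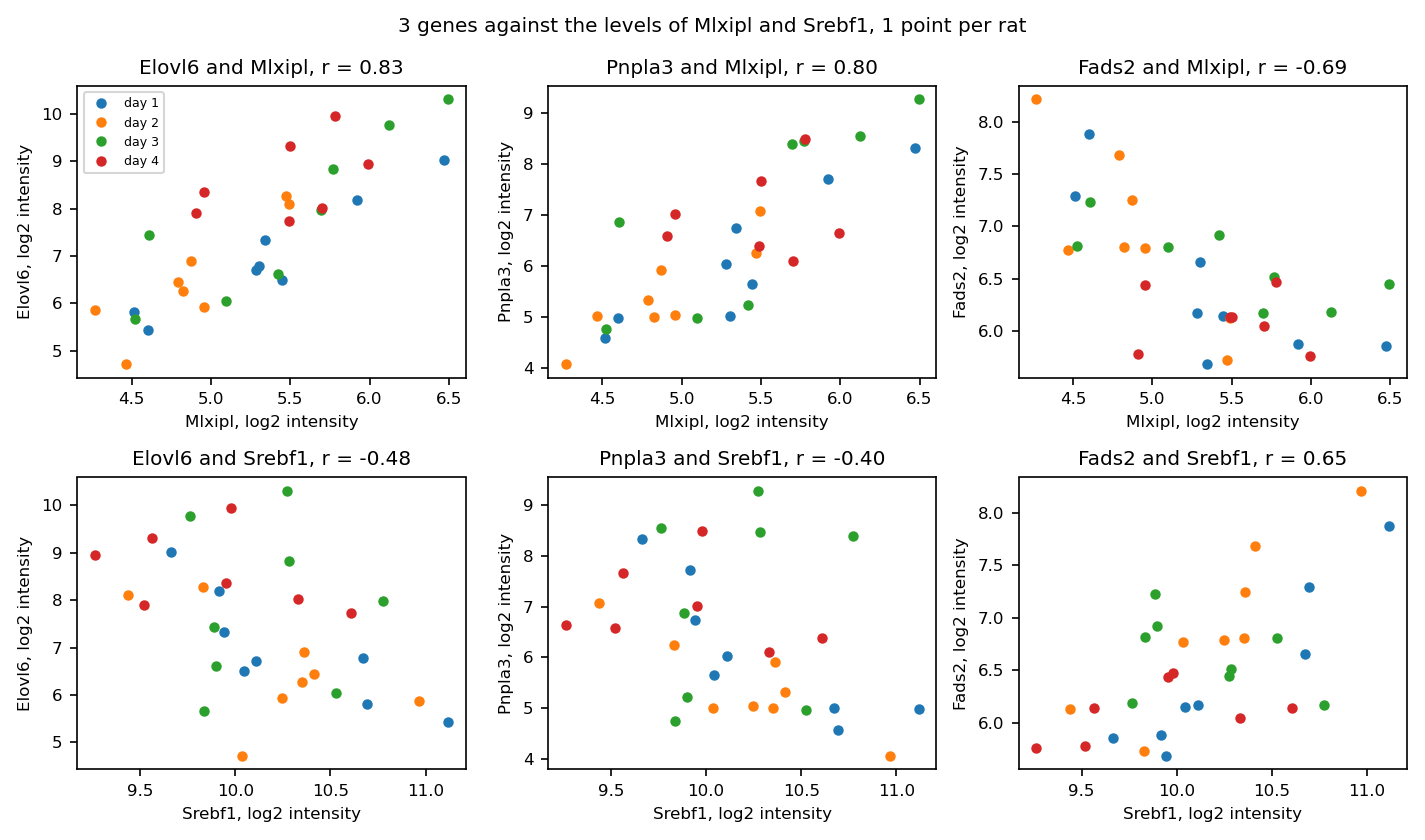
Log2 intensity of Elovl6, Pnpla3 and Fads2 against that of Mlxipl (top) and Srebf1 (bottom), 1 point per rat, coloured by cycle day. Over all 31 rats Elovl6 and Pnpla3 climb with Mlxipl (r = 0.826 and 0.801) and Fads2 falls with it (r = -0.69), with r of 0.485, 0.15 and -0.098 on day 4, while r with Srebf1 is -0.476, -0.401 and 0.647.

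Each regulator was set against the mean of each marker list, in 18 relations. Luminal markers and milk protein genes passed an adjusted permutation p of 0.05 with both regulators, and adipocyte markers with Mlxipl only. The muscle, brown fat, basal, lymphocyte, macrophage and endothelial means passed with neither. Their r ran from -0.284 (Srebf1 with endothelial markers) to 0.397 (Srebf1 with brown fat markers). The brown fat mean held only 2 of 7 markers on the array, as the others, Ucp1 among them, missed the intensity minimum. These were Cox7a1 and Prdm16, both near that minimum (mean log2 intensity 4.19 and 3.72), so this mean is a poor measure of brown fat. Mlxipl had r = 0.471 with adipocyte markers (permutation p = 0.00764, adjusted 0.0275, rho = 0.46, permutation p = 0.01), -0.581 with luminal epithelial markers (permutation p = 0.00052, adjusted 0.00468, rho = -0.614, permutation p = 0.00032) and -0.692 with milk protein genes (permutation p = 1e-05, adjusted 0.00018, rho = -0.729, permutation p = 1e-05). Srebf1 had r = 0.542 with luminal markers (permutation p = 0.00166, adjusted 0.00996, rho = 0.479, permutation p = 0.00685) and 0.516 with milk protein genes (permutation p = 0.00304, adjusted 0.0137, rho = 0.49, permutation p = 0.0055), and -0.049 with adipocyte markers (permutation p = 0.793, rho = 0, permutation p = 1). Without the farthest 2 rats these were 0.544, -0.628 and -0.768 for Mlxipl and 0.491, 0.457 and 0.109 for Srebf1.

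Members differed in how they varied with these means. Gpd1 (r = 0.856), Dgat1 (0.816), Agpat2 (0.729) and Lpin1 (0.718) were closest to the adipocyte mean, Fads2 (0.807) and Fads1 (0.767) to the milk protein mean, and Elovl6 had 0.409 with the adipocyte mean and -0.641 with the milk protein mean. Scd2 had -0.077 and -0.045, Lpin3 -0.09 and 0.194, Acsl5 0.028 and 0.241 and Aacs 0.286 and 0.108 with the adipocyte and the milk protein mean. With the adipocyte mean in the fit, 11 members were called positive and 1 negative with Mlxipl, where 0.935% of all probe sets were called in either direction. With the means of adipocyte, muscle, luminal and lymphocyte markers, Elovl6 and Pnpla3 were the 2 called, where 9 of 21067 probe sets (0.0427%) were. The r of the 17 genes with these 4 means removed was 0.307 to 0.761, with a median of 0.55. With Srebf1 the 4 means left Fads1, Fads2 and Aacs called positive, joined by Dgat1, and Scd called negative, where 4.01% of all probe sets were called in either direction. What share of the relations comes from the mix of tissue was not tested.

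The stretches before the transcription starts are shown for both regulators, for the desaturases on the side of Srebf1 and for Pnpla3 and Acss2 on the side of Mlxipl. They are the 250 bases before each start from RefSeq, build GRCr8, of which 25 of 31 members had an entry. The letters CCAAT on either strand, the box bound by NF-Y, a known partner of SREBP, are in capitals (ATTGG on the strand shown is the same box on the other strand). Srebf1 has windows at chr10:45519011-45519260 and chr10:45529165-45529414, Fads1 at chr1:216252442-216252691, Fads2 at chr1:216172034-216172283, Mlxipl at chr12:27213661-27213910, Pnpla3 at chr7:117173278-117173527 and Acss2 at chr3:164464453-164464702, with Fads1, Pnpla3 and Acss2 on the plus strand and the others on the minus strand.
Srebf1, window chr10:45519011-45519260: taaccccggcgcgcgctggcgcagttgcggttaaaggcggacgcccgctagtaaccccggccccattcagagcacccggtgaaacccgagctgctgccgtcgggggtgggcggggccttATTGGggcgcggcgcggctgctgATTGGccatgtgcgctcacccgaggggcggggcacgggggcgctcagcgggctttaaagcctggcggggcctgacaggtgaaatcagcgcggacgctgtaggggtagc
Srebf1, window chr10:45529165-45529414: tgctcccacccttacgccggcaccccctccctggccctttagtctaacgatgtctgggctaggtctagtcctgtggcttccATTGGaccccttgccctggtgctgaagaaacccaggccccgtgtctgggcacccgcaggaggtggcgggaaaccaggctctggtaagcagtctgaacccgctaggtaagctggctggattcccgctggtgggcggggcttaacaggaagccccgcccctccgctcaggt
Fads1: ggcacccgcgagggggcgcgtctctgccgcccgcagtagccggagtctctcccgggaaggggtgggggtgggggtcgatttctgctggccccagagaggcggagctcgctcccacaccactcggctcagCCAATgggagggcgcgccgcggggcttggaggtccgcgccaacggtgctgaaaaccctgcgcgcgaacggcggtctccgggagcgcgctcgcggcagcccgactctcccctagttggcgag
Fads2: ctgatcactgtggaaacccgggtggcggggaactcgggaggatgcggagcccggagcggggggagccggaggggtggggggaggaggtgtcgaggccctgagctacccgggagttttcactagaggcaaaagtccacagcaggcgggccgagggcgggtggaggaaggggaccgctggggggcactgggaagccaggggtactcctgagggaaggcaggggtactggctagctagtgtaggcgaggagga
Mlxipl: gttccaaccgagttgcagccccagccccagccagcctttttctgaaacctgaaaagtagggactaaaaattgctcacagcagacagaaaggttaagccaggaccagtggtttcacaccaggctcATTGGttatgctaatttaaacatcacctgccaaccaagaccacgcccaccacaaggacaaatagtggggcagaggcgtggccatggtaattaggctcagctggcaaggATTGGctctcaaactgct
Pnpla3: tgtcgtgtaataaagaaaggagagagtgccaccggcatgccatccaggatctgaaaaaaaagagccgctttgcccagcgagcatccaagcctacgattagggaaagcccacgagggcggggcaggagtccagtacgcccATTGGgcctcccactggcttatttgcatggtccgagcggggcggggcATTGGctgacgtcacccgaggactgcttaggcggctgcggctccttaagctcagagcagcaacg
Acss2: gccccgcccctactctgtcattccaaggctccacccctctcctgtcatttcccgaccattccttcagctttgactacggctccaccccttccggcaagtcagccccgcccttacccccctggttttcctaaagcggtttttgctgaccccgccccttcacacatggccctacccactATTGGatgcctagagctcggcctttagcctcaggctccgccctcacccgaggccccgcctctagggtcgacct

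Fads1 and Fads2 both lie on chromosome 1, on opposite strands. CCAAT was in 18 of 27 windows of members and in 34% of all 33469 windows of the same length. Among the 27, Mlxipl also has the window chr12:27213657-27213906, which covers nearly the same bases as the window shown. Counted by gene, with a hit in any of its windows, 16 of 25 members (64%) held CCAAT. Srebf1, Mlxipl and Pnpla3 hold it, and Fads2, Scd, Aacs and Lpin2 do not. Of the 17 genes called positive with Mlxipl, 12 had an entry and 8 of these held CCAAT. The E-box letters CACGTG were in 1 of 27 windows of members, that of Elovl5, and in 5.59% of all windows. The letters TCACNCCAC of a sterol response element were in 0 of 27 windows of members and in 0.974% of all windows. A match is a run of letters in this window and not a measured site.

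Genes around the path were read from 3 further lists. Along the hour, 1.96% of all probe sets were called and 12.6% had an unadjusted p under 0.05 in limma. Of 24 other genes of lipogenesis and NADPH supply that passed the intensity minimum, 0 were called along the hour (5 at an unadjusted p under 0.05, limma). With Mlxipl, 5 were called positive and 3 negative, where 2.83% and 3.04% of all probe sets were. Among them was Pc, the pyruvate carboxylase that feeds citrate synthesis, with a log2 slope of 0.54 per SD (limma adjusted p = 0.000569). Hsd17b12, the reductase of the elongation cycle, had 0.22 (0.00872). Olah, the thioesterase that ends chains at medium length in milk-making epithelium, had -0.42 (0.000964). With Srebf1, 3 were positive and 1 negative, where 6.11% and 4.27% of all probe sets were. Gpat4, an acyltransferase of the glycerolipid path, had 0.14 (limma adjusted p = 0.00308).

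Of 21 genes that act on SREBP or ChREBP, 0 were called along the hour (2 unadjusted, limma). With Srebf1, 3 were called positive and 0 negative, where 6.11% and 4.27% of all probe sets were, and with Mlxipl 1 positive and 2 negative, where 2.83% and 3.04% were. Prkaa2, a catalytic subunit of AMP kinase, had a log2 slope of 0.36 per SD of Srebf1 (limma adjusted p = 0.000884) and -0.35 per SD of Mlxipl (0.00244). Ppargc1b, a coactivator of SREBP-1, had 0.20 per SD of Srebf1 (0.00107), and Med15, a Mediator subunit, 0.10 (0.0399). Insig1, which holds SREBP in the endoplasmic reticulum, had 0.41 per SD of Mlxipl (limma adjusted p = 0.00291), and Nfya, a subunit of NF-Y, -0.11 (0.0112).

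Of 15 genes of insulin signalling and glucose use, 1 was called along the hour. It was Slc2a1, the general glucose transporter, with a log2 rise of 0.77 over 10 h (SE 0.20, limma adjusted p = 0.0415). With Srebf1, 2 were called positive and 1 negative, where 6.11% and 4.27% of all probe sets were. Slc2a1 had a log2 slope of 0.41 per SD of Srebf1 (limma adjusted p = 3.46e-05). With Mlxipl, 3 were called positive and 0 negative, where 2.83% and 3.04% were. Slc2a4, the insulin-responsive transporter of fat and muscle, had 0.52 per SD of Mlxipl (limma adjusted p = 0.000121). Pdha1, a subunit of pyruvate dehydrogenase, had 0.24 (0.000172). Among 11180 genes outside the list, those most alike Srebf1 over 31 rats by Pearson r were Tjp3 (0.878), Myzap (0.864), Ehhadh (0.832), Cipc (0.829) and Alkbh2 (0.829). Those most alike Mlxipl were Slc37a4 (0.872), Grtp1 (0.794), Tlcd3b (0.788), Tm6sf2 (0.783) and Pygl (0.776).

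Different probe sets of a member mostly gave the same picture. Of 21 other passing probe sets, 13 had an r of at least 0.8 with the one used, among them those of Fasn (0.941), Elovl6 (0.983), Dgat2 (0.989) and Srebf1 (0.965). In 3 it was under 0.5, for Lpin2 (-0.159), Agpat3 (0.27) and Acsl5 (0.415), and 14 members had 1 passing probe set only, among them Mlxipl, Pnpla3, Fads1, Fads2 and Aacs.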

How the data were processed

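RNA of 32 rat mammary glands was hybridized, 1 gland to an array (Affymetrix Rat 230 2.0). Per the study's methods, the authors computed the deposited intensities with GC-RMA, named GCRMA in the submitters' processing notes without a version. This method corrects background by probe sequence, normalizes between arrays and yields 1 value per probe set, here on a linear scale. Gene symbols came from the platform annotation. The labels and the study's methods describe the tissue differently (the fourth glands in a preservative, and frozen gland chains), and both remove lymph nodes. No batch is known.

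From there, 57 control probe sets and the 40 h array were set aside. The 21068 probe sets at 10 or higher on each of the other 31 arrays entered the fits on log2 values. Tests were fitted across all of them with limma 3.58.1 in R 4.3.3 (lmFit, eBayes, Benjamini-Hochberg, called at an adjusted p under 0.05): clock hour with cycle day as a factor, day contrasts in the same fit, their interaction, a squared hour term, and the slope on the log2 level of Srebf1 or Mlxipl. The probe sets of the regulator were left out of its own test. Method 1 used an order 2 spline. Correlations have two-sided permutation tests with 100000 resamples. Each time point is 1 rat, so limma p-values set an estimate against the spread between rats around the fitted line. Method 1 p-values come from the study's own fixed reordering of the times, pooled over all probe sets. All 31 members were named. The members, lists and tests were chosen with earlier results of these data known.

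On simulated data, the fit along the hour recovered 56.7% of log2 changes of 0.5, 91% of 1 and 100% of 2 over 21068 probe sets, with 6.25% of calls false. For day 3 against day 1 these were 61.2%, 92.5% and 100%, with 4.52% false, and Method 1 recovered 97.5% of shifts of 3 residual SDs. The shares are for simulated probe sets and were not computed at the spread of each member. They do not bound the change of a member that was not called, least of all of widely varying ones such as Elovl6, Pnpla3 and Scd. Alternatives changed the intensity minimum, the 40 h array, quantile normalization, array weights, marker covariates, the probe set rule, the day and hour terms, and left out each day and each rat.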

Additional observations from a re-analysis of the deposited data

Results flagged for a closer look

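In 3 of 124 groups of rats (31 members on 4 days) 1 rat stood apart from the rest of its day by the gap to its nearest neighbour, where chance gives about 1 in 20 groups. Acaca on day 4 was 8175 in the rat at 80.9 h, and the next highest rat had 4472. Acly on day 1 was 5547 in the rat at 7 h, against 3222 in the next. Lpin3, a phosphatidate phosphatase, was 174.9 on day 4 in the rat at 86.3 h, against 122.9 in the next.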

How the results depend on the processing

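No called result changed sign under any alternative. In 14 genes, 87 estimates past the threshold in neither fit did. Along the clock hour, 2 members called higher became 4 with the adipocyte covariate, 0 with the 4 marker covariates, without day 2 or without day 3, and 1 without day 4. With 1 rat left out the count was 2 to 4, with 4 without the rat at 7 h or at 58 h. The 1 member (Scd2) called for day 3 against day 1 became 0 without the intensity minimum, with all 32 arrays, with the 4 marker covariates, with the mean of all probe sets or without day 4, and 2 with the adipocyte covariate (0 to 1 with 1 rat left out, lost in 15 of 31). For day 3 against day 2 it became 0 with the 4 marker covariates or the mean of all probe sets (0 to 1, lost in 4 of 31). Over all days it became 0 without the intensity minimum, with all 32 arrays, with the 4 marker covariates, with the mean of all probe sets and without day 1, 2 or 3, and 2 with the adipocyte covariate (0 to 1, lost in 21 of 31). Acaca made 1 call for day 4 against day 2 without day 3, and Agpat1 and Fads1 made 2 for the slope by day with array weights, where 0.869% of all probe sets were called.

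With Srebf1, the 5 positive calls became 3 with the mean of all probe sets, with day and hour in the fit and without day 4 (4 to 5 with 1 rat left out). The 2 negative calls became 1 without the intensity minimum, with the 4 marker covariates and with the second Srebf1 probe set, 0 with day and hour in the fit and without day 1, 2 or 4, and 6 without day 3 (0 to 3). With Mlxipl, the 17 positive calls became 11 with the adipocyte covariate and without day 1, 2 with the 4 marker covariates and 6 without day 3 (15 to 18). The 2 negative calls became 1 with the adipocyte covariate and without day 1, 2 or 4, 0 with the 4 marker covariates and 4 without day 3 (1 to 3, with 1 without the rat at 17.6 h or at 41.6 h). For the slope on Mlxipl minus that on Srebf1, the 12 positive differences became 4 with the 4 marker covariates and 7 without day 3 (11 to 14), and the 3 negative became 5 with the adipocyte covariate (3 to 5, with 5 without the rat at 7 h). Method 1 called 2 members at a false discovery rate of 0.05 and 1 with order 3 splines (2 to 8, with 2 without the rat at 35.5 h). The cause of these changes was not tested. No paired analysis was possible because each rat gave 1 array at 1 hour.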

Other observations

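The array of the rat at 40 h, left out of the fits, was set against the ranges of the other rats. The study discarded this array as apparently corrupted, and the ranges of the members do not test its quality. None of the 31 members lay outside the range of the 31 rats. Against the 8 other rats of day 2, 7 members lay above the range, 1 below it and 23 inside. Those above were Fasn (7993, against 2829 to 6744), Acly (4393, against 2523 to 4090), Scd2 (2687, against 695.7 to 1808), Lpin1 (851.9, against 356.3 to 750.8), Acss2 (1174, against 515.6 to 1025), Acsl1, an acyl-CoA synthetase (7514, against 3697 to 5967), and Mlxipl (54.3, against 19.3 to 44.99). Lpin3 lay below (93.9, against 99.5 to 140.4).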
